A study of Mus musculus with 6 samples.

Results

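Histone genes are described here across heads of embryonic day 9.0 (E9.0) mouse embryos that were wild type (WT) or had lost 1 copy of *Snrpb* in neural crest cells and the neural tube. The genes were chosen by symbol and by level. They are the rows of the deposited count table whose symbol starts with Hist1h, Hist2h, Hist3h or Hist4h and that hold at least 10 reads in at least 3 of the 6 libraries. Of the 24421 genes in the table, 68 have such a symbol and 58 of these passed. All 58 held at least 10 reads in every library, so none passed through 1 genotype alone, and all 58 were among the 15584 genes tested. They comprise 6 H1, 13 H2a, 17 H2b, 10 H3 and 12 H4 genes. The rule does not use the genotype, although histone genes were picked for description with genotype results of these data known.

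The study removed 1 copy of *Snrpb*, which encodes a core protein of the spliceosomal small nuclear ribonucleoproteins, to model a craniofacial syndrome. The 3 mutant pools carried the conditional *Snrpb* allele and the Wnt1-Cre2 transgene (*Snrpb* ncc+/-). Deletion was thus limited to cells that express or once expressed this Cre and to their descendants. The rest of the head retained both copies. The 3 WT pools are labelled *Snrpb* +/+, and the labels do not say whether these embryos carried the transgene. Each pool held 2 somite-matched heads from different litters. All embryos were untreated and from 1 age. The labels give the strain as C57BL/6 and also name CD1, and the study's methods describe a mixed background of both. *P*-values below set the difference between genotypes against the spread between these pools. Spread between single embryos was not measured.

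Most histone mRNA is made during S phase, when new chromatin needs equal supplies of the core histones H2A, H2B, H3 and H4 and of the linker histone H1. Replication-dependent histone genes lie in clusters and lack introns. Their mRNAs end not in a poly(A) tail but in a conserved stem-loop that is bound by SLBP, and the pre-mRNA is cut downstream of it by a machinery that contains the U7 small nuclear ribonucleoprotein. U7 carries LSM10 and LSM11 in place of 2 of the Sm proteins of the spliceosomal particles but keeps the others, SNRPB among them. Libraries depleted of ribosomal RNA, as used here, retain transcripts without a poly(A) tail.

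The stem-loop is the sequence that defines the replication-dependent type, so it was looked for in every histone row. The motif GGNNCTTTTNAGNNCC was searched on the sense strand of the Gencode M21 transcripts of the mm10 build. It was found in 89 of 55341 genes of that annotation, or 0.161%. Of the 58 histone genes, 41 have an annotated transcript that runs at least 50 bases past the stop codon, and 37 of these contain it. The other 4 are *Hist1h2bc*, *Hist1h3g*, *Hist1h4a* and *Hist2h2be*. The 17 remaining genes are annotated with little or no sequence past the stop codon and could not be assessed. The loops below show each class and each base change, with the 16-base stem-loop in capitals and 5 bases on either side.
*Hist1h1c*: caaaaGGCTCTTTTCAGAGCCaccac
*Hist3h2a*: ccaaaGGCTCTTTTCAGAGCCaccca
*Hist2h2ac*: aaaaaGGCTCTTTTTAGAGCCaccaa
*Hist1h2bp*: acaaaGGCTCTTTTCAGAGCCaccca
*Hist1h3c*: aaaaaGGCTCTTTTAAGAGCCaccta
*Hist1h4d*: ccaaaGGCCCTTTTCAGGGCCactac
*Hist1h4i*: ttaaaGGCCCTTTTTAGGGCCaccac
*Hist1h4j*: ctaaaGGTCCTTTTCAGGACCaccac
Among all 68 rows, 44 contained the motif. The H4 genes differed from the other classes in the stem. Of the 11 H4 loops, 7 read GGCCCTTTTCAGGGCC, 2 read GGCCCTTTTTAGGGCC and 2 read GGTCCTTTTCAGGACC. The 33 loops of the other classes all shared 1 stem and differed only in the base after the 4 T.

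The H4 genes also differed in their promoters. The 300 bases from 250 before to 50 after the start of transcription (RefSeq, GRCm38.p6) were at hand for 60 of the 68 rows. The CCAAT box, which is bound by NF-Y, was found on either strand in all 48 promoters of H1, H2a, H2b and H3 genes and in 3 of 12 H4 promoters. It was present in 37.4% of the 32851 promoters of the annotation. The octamer ATTTGCAT, the site of POU2F1, was found in 7 of 17 H2a and 6 of 15 H2b promoters and in no promoter of the other 3 classes, against 1.74% of all promoters. Some H2a and H2b genes lie back to back with overlapping promoter windows, so 1 site can count in both classes. *Hist1h2ae* and *Hist1h2bg* hold the same octamer in this way, as do *Hist1h2ah* and *Hist1h2bk*. TATAAA was present in 8 of the 12 H4 promoters and 27 of the 48 others, against 13.6%. The promoters of an H1, an H2a and an H4 gene are shown as the last 150 bases before the start, with each of these motifs, on either strand, in capitals. They lie at chr13:21780626-21780775 (*Hist1h1b*, minus strand), chr11:58954535-58954684 (*Hist3h2a*, plus strand) and chr13:21750554-21750703 (*Hist1h4k*, minus strand).
*Hist1h1b*: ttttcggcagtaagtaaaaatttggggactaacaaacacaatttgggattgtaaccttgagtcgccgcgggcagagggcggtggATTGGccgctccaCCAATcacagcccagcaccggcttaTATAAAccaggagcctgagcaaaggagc
*Hist3h2a*: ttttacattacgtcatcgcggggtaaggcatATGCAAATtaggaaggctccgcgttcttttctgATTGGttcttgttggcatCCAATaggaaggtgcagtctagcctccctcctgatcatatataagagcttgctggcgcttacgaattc
*Hist1h4k*: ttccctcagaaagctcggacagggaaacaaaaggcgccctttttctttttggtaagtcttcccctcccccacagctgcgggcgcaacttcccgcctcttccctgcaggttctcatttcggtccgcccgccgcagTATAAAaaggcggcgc
A match is a description of these letters and not evidence of binding.

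The 58 genes took 1.83%, 1.88% and 1.78% of the reads counted in WT 1, WT 2 and WT 3, and 1.85%, 1.63% and 1.68% in mutant 1, mutant 2 and mutant 3. These are shares of 36378803 to 74909774 reads per library. Levels below are in CPM, the reads of a gene scaled to a common library size with edgeR's TMM factors. The summed level was 18319, 18877 and 17991 CPM in WT and 18621, 16104 and 16840 CPM in mutants. Mutant 2 and mutant 3 lay below every WT library, and mutant 1 lay within the WT range. WT averaged 18396 ± 448 CPM and mutants 17188 ± 1294 CPM (SD, *n* = 3 libraries each), a difference of -6.56%. In whole heads, fewer cells that express a gene and less RNA per cell cannot be told apart.

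Most histone genes had a lower mean in the mutant pools, and none passed the test over all genes with edgeR. With its quasi-likelihood test none of the 58 had an adjusted *P* under 0.05, the lowest being 0.433, and 0.00642% of all tested genes did. The log2 fold change of mutant against WT was below 0 for 47 of the 58 genes, and for 49.8% of all tested genes. The median was -0.14 over the 58 genes and 0.0004 over all tested genes. At an unadjusted *P* under 0.05, 12 histone genes were lower in mutants and 0 were higher, where 4.09% of all tested genes were lower and 4.34% higher. All 3 mutant libraries lay below all 3 WT libraries for 8 of the 58 genes, and above them for none, against 6.92% and 8.32% of all tested genes. DESeq2 called 1 histone gene lower, *Hist1h2bp*, and 0.217% of the genes it tested.

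**Figure D1:**
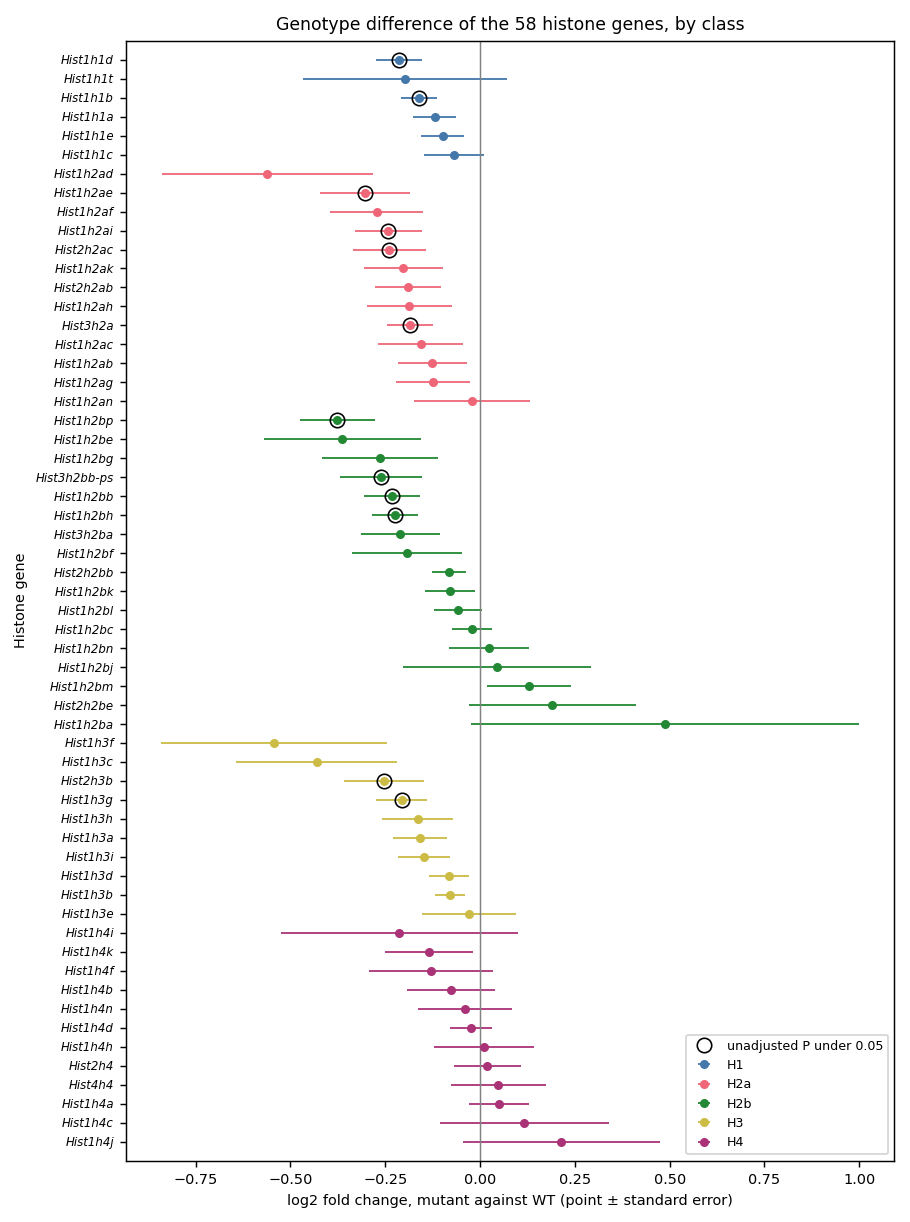
Log2 fold change of mutant against WT (horizontal axis, point ± standard error from edgeR) for each of the 58 histone genes, grouped by class and ordered within it. Black rings mark the 12 genes at an unadjusted P under 0.05. All H1, H2a and H3 points lie left of 0, while the 12 H4 points divide evenly around it.

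The count of 12 rested on which mutant pools entered. It was 7 without mutant 2, 6 without mutant 3 and 25 without mutant 1. The 4.09% given above belongs to the fit of all 6 libraries. The share over all tested genes was not counted in these smaller fits, so their counts have no background beside them. The median over the 58 genes went from -0.14 to -0.086 without mutant 2. Relative to the WT mean of each gene, the median log2 deviation of the 58 genes was -0.018 in mutant 1, -0.22 in mutant 2 and -0.13 in mutant 3, and 0.019, 0.037 and -0.044 in the WT libraries. Of the 58 genes, 31 had the lowest of their 6 values in mutant 2, 17 in mutant 3 and 2 in mutant 1. Mutant 2 and mutant 3 are also the libraries with the most reads counted, and the part of depth in this pattern was not tested.

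**Figure D2:**
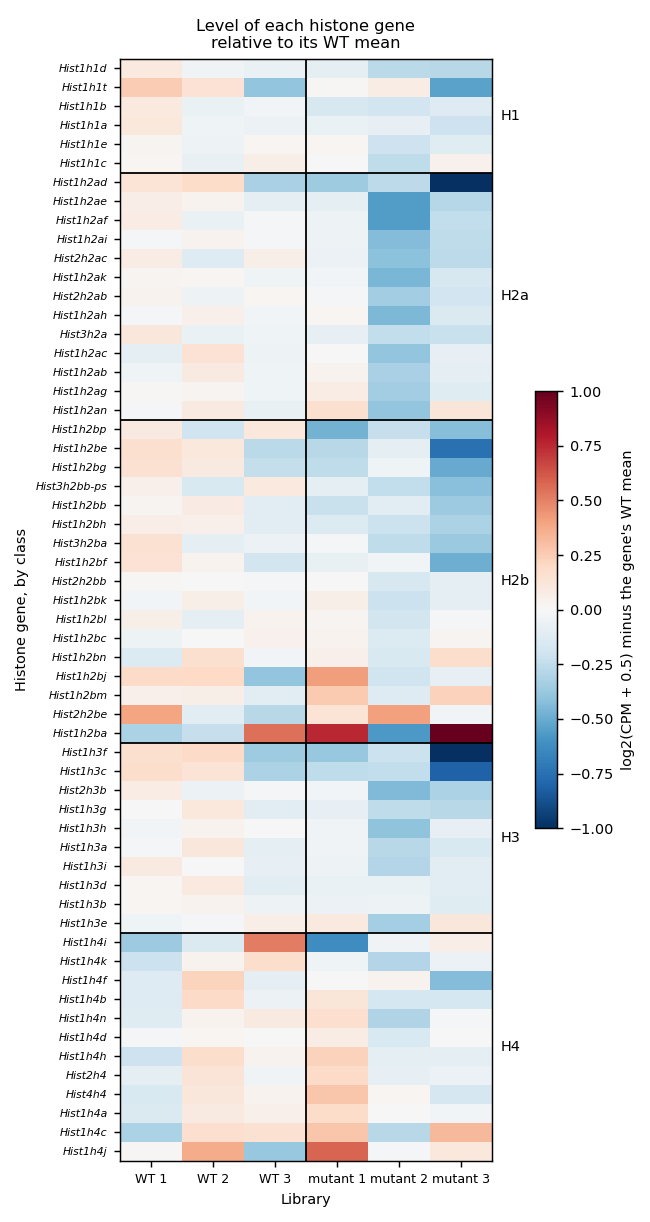
Level of each of the 58 histone genes (rows, by class) in each library (columns) as log2(CPM + 0.5) minus the mean of the 3 WT libraries, with colours saturated beyond 1 in either direction. H2a genes are lowest in mutant 2, in 12 of 13 cases, and H4 genes are most often highest in mutant 1, in 7 of 12 cases.

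By class, with no test between classes, the median log2 fold change was -0.19 for H2a, -0.16 for H3, -0.14 for H1, -0.081 for H2b and -0.0076 for H4. All 6 H1, all 13 H2a and all 10 H3 genes had a log2 fold change below 0, as did 12 of 17 H2b and 6 of 12 H4 genes. Of the 12 genes at an unadjusted *P* under 0.05, 2 were H1, 4 H2a, 4 H2b and 2 H3 genes. Leaving out mutant 2 took the median of H2a to -0.11, of H3 to -0.096 and of H2b to -0.045. The median of H1 was -0.079 without WT 1. The sign of the H4 median depended on the libraries and on the scaling. It was -0.078 without mutant 1, 0.064 without mutant 2 and 0.0031 with library size in place of TMM factors.

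Summed over a class, H1 mRNA was 4482, 4114 and 4218 CPM in WT and 4105, 3736 and 3855 CPM in mutants. The groups did not overlap, although mutant 1 almost reached WT 2. H2a mRNA was 1529.9, 1520.5 and 1459.6 CPM in WT and 1469, 1138 and 1308 CPM in mutants, and only mutant 2 and mutant 3 lay below WT. H2b mRNA was 4661, 4648 and 4303 CPM in WT and 4561, 4064 and 4157 CPM in mutants. H3 mRNA was 2952, 2993 and 2709.98 CPM in WT and 2748, 2399.8 and 2477 CPM in mutants. In H2b and in H3 the same pair of mutant libraries lay below WT and mutant 1 lay within its range. H4 mRNA was 4693, 5601 and 5301 CPM in WT and 5739, 4765 and 5042 CPM in mutants, and the groups covered almost the same range. The difference of the means was -13.2% for H2a, -11.9% for H3, -8.73% for H1, -6.09% for H2b and -0.318% for H4.

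**Figure D3:**
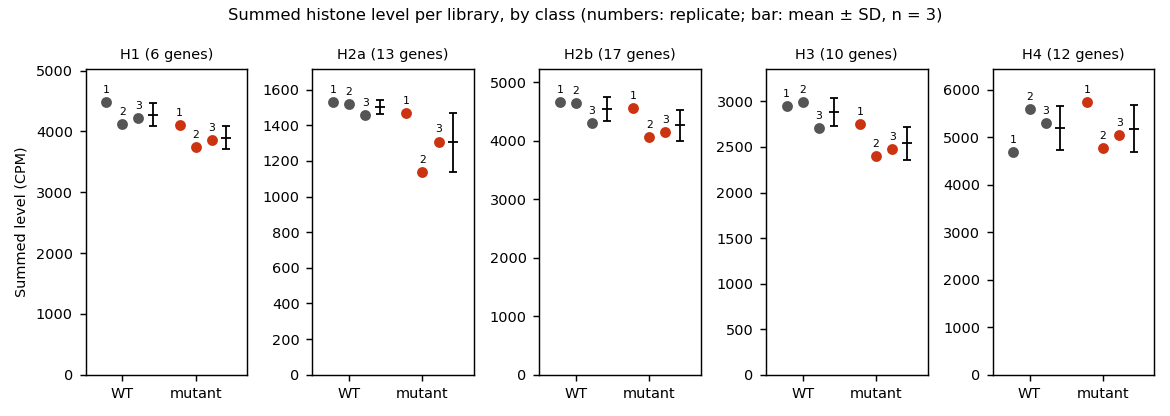
Summed CPM of the genes of each histone class (vertical axes, from 0) in the 3 WT and 3 mutant libraries, numbered by replicate, with the mean ± SD beside them. The H1 sums of the mutants all lie under those of WT, and the H4 sums of the 2 groups overlap almost fully.

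Core histones are assembled in equal numbers, so the balance of classes within a library was compared as a ratio of summed reads, which does not depend on the library's scaling. The ratio of H4 to H2a was 3.07, 3.68 and 3.63 in WT and 3.91, 4.19 and 3.85 in mutants. The ratio of H4 to H3 was 1.59, 1.87 and 1.96 in WT and 2.09, 1.99 and 2.04 in mutants. For both, every mutant library lay above every WT library, mutant 1 included. The means were 3.46 ± 0.342 and 3.98 ± 0.179 (SD, *n* = 3 each) for H4 to H2a, and 1.81 ± 0.192 and 2.04 ± 0.0515 (SD, *n* = 3 each) for H4 to H3. The ratios of H4 to H1 and of H4 to H2b overlapped between genotypes. WT 1 had the lowest ratio of all 6 libraries in all 4 comparisons, and it was also the WT library with the lowest H4 sum. These ratios were chosen after the class levels were known and carry no test.

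**Figure D4:**
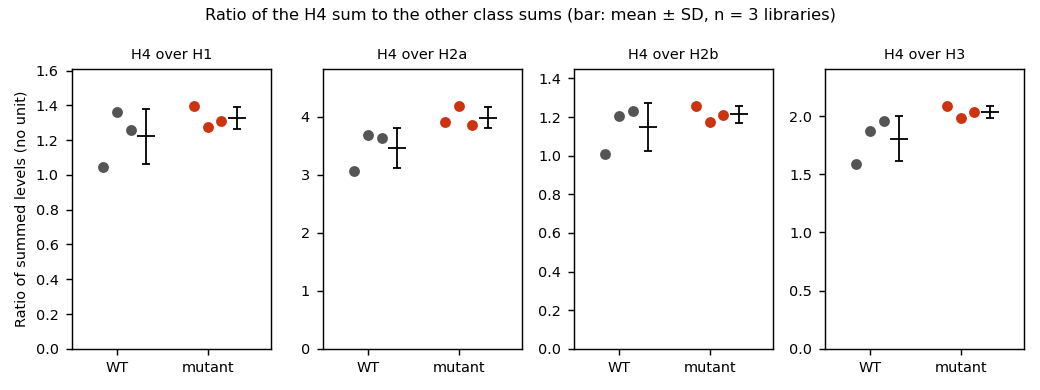
Ratio of the summed H4 level to that of each other class (vertical axes, from 0) in the 3 WT and 3 mutant libraries, with the mean ± SD beside them. The mutant libraries lie above the WT libraries for H2a and H3 and overlap with them for H1 and H2b. The ratios are of reads and not of mRNA molecules.

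H1 linker histones bind the nucleosome where DNA enters and leaves. Per kilobase of annotated exon, *Hist1h1a* (1277 CPM per kb) and *Hist1h1b* (995.8 CPM per kb) were the most abundant H1 genes. Such ranks rest on exon lengths from a later annotation than the one used for counting, which range from 312 to 7425 bases with the length of the annotated tail, and in CPM alone *Hist1h1e* was the highest H1 gene. *Hist1h1b*, at chr13:21779883-21780625, was at 834, 744 and 766 CPM in WT and 698, 684 and 713 CPM in mutants. All mutant libraries were below all WT libraries, with a log2 fold change of -0.16 (SE 0.05, edgeR adjusted *P* = 0.433). *Hist1h1d* was at 861, 785 and 766 CPM in WT and 749.8, 668 and 662 CPM in mutants. It too did not overlap between genotypes, with a log2 fold change of -0.21 (SE 0.06, edgeR adjusted *P* = 0.433). *Hist1h1a* was at 1059, 954 and 943 CPM in WT and 942, 928 and 851 CPM in mutants, so that WT 3 and mutant 1 nearly met. Its log2 fold change was -0.12 (SE 0.06). *Hist1h1e* and *Hist1h1c* had log2 fold changes of -0.10 and -0.07 and overlapped. *Hist1h1t*, the testis form, had the fewest reads of the 58 genes, 54 to 169 per library or 1.28 to 2.58 CPM, and was thus the nearest to the count minimum from above while well clear of it. Its log2 fold change was -0.20 (SE 0.27).

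H2a genes encode the partner of H2B in the nucleosome. The most abundant per kilobase were *Hist1h2ak* (767 CPM per kb) and *Hist1h2ab* (386 CPM per kb). *Hist1h2ak* was at 328, 327 and 313 CPM in WT and 317, 235 and 289 CPM in mutants, giving a log2 fold change of -0.20 (SE 0.10). Mutant 1 was within the WT range and mutant 2 was the lowest. *Hist3h2a*, at chr11:58954685-58956830, was at 176, 156 and 158 CPM in WT and 154, 137 and 139.6 CPM in mutants. *Hist1h2ai* was at 112, 117 and 113 CPM in WT and 110.2, 84.3 and 95.5 CPM in mutants. These 2 genes had all mutant libraries below WT, with log2 fold changes of -0.19 (SE 0.06) and -0.24 (SE 0.09). *Hist2h2ac* (-0.24, SE 0.10) and *Hist1h2ae* (-0.30, SE 0.12) were also at an unadjusted *P* under 0.05, with mutant 1 inside the WT range for both. The edgeR adjusted *P* of these 4 genes lay between 0.455 and 0.554. *Hist1h2ab* had a log2 fold change of -0.13 (SE 0.09). *Hist3h2a* shares exon sequence with the overlapping annotation of *Trim17*, and its reads cannot all be told apart from those of that gene. *Hist1h2ai* shares 88.4% of its windows of the read length with other genes, and *Hist1h2ab* shares 52.4%. The values of these genes may therefore not be specific to them.

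The log2 fold changes of H2b genes, which encode the partner of H2A, covered the widest range of the 5 classes, from -0.38 to 0.49. *Hist2h2bb* had the highest level per kilobase of all histone genes (3060.4 CPM per kb), followed within the class by *Hist1h2bl* (836 CPM per kb). *Hist2h2bb* overlaps *Gm42743* on the same strand and shares 45.4% of its windows of 100 bases with other genes, so its reads cannot all be told apart from theirs. *Hist2h2bb* was at 1211, 1194 and 1192 CPM in WT and 1204, 1074 and 1121 CPM in mutants, giving a log2 fold change of -0.08 (SE 0.04). For *Hist1h2bl*, which shares 62.1% of these windows with other genes, it was -0.06 (SE 0.06). *Hist1h2bp*, at chr13:21787461-21789213, was at 77.4, 63.2 and 78.4 CPM in WT and 52.3, 62.0 and 54.0 CPM in mutants. WT 2 and mutant 2 were nearly equal, and the other libraries were well apart. Its log2 fold change was -0.38 (SE 0.10, edgeR adjusted *P* = 0.433), and DESeq2 gave -0.38 (SE 0.10, adjusted *P* = 0.0259), so the call depended on the tool. *Hist1h2bh* was at 286, 283 and 253 CPM in WT and 248, 236 and 219.7 CPM in mutants, without overlap (-0.22, SE 0.06, edgeR adjusted *P* = 0.433). *Hist1h2bb* (-0.23, SE 0.07) and the annotated pseudogene *Hist3h2bb-ps* (-0.26, SE 0.11) were at an unadjusted *P* under 0.05 and overlapped between genotypes. *Hist3h2ba* had a log2 fold change of -0.21 (SE 0.10).

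The 3 highest log2 fold changes of H2b genes had wide errors. *Hist1h2ba*, a form known from the testis, was at 32.0, 33.9 and 58.7 CPM in WT and 67.7, 26.7 and 80.5 CPM in mutants. Its log2 fold change of 0.49 (SE 0.51) was the highest of the 58, and mutant 2 lay below every WT library. *Hist2h2be*, the next lowest of the 58 in reads (82 to 294 per library), was at 3.82, 2.54 and 2.22 CPM in WT and 3.13, 3.87 and 2.72 CPM in mutants (0.19, SE 0.22). *Hist1h2bm* had a log2 fold change of 0.13 (SE 0.11). None of the 3 differed by more than the spread between pools.

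H3 genes were led per kilobase by *Hist1h3e* (837 CPM per kb) and *Hist1h3i* (613 CPM per kb). *Hist1h3e* was at 685, 698 and 739 CPM in WT and 754, 559 and 765 CPM in mutants, giving a log2 fold change of -0.03 (SE 0.12) that became 0.10 without mutant 2. *Hist1h3i* had -0.15 (SE 0.07). *Hist1h3g* was at 204, 218 and 189 CPM in WT and 192, 171 and 167 CPM in mutants (-0.21, SE 0.07, edgeR adjusted *P* = 0.465). *Hist2h3b* was at 176, 160.3 and 165 CPM in WT and 164, 123 and 134 CPM in mutants (-0.25, SE 0.11, edgeR adjusted *P* = 0.592). In both, mutant 1 lay inside the WT range. *Hist1h3h* did not overlap between genotypes, at 206, 215 and 209.7 CPM in WT and 205, 159 and 199 CPM in mutants, giving a log2 fold change of -0.16 (SE 0.09). The gap between WT 1 and mutant 1 was small. *Hist1h3h* shares 92.0% of its windows of the read length with other genes, *Hist2h3b* 77.1% and *Hist1h3i* 68.6%. Reads of these genes cannot all be told apart from those of others, so their values may not be specific to them.

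Of the 5 lowest log2 fold changes, that of *Hist1h2bp* had no overlap between genotypes, and the other 4 belonged to genes with wide errors and overlapping groups. *Hist1h2ad* was at 64.2, 66.6 and 46.7 CPM in WT and 45.5, 48.6 and 26.5 CPM in mutants, giving a log2 fold change of -0.56 (SE 0.28). *Hist1h3f* was at 365, 373 and 254 CPM in WT and 251, 281 and 149 CPM in mutants (-0.54, SE 0.30). *Hist1h3c* was at 313, 305 and 223 CPM in WT and 233, 234 and 158 CPM in mutants (-0.43, SE 0.21). *Hist1h2be* was at 343, 330.4 and 254 CPM in WT and 253, 286 and 182 CPM in mutants (-0.36, SE 0.21). In each of the 4, WT 3 was the lowest WT library and mutant 3 the lowest mutant library. WT 3 lay close to the higher mutant libraries, so the groups overlapped. *Hist1h2be* overlaps *Hist1h1e* on the same strand in the annotation, and reads of that stretch cannot be told apart. *Hist1h2ad* shares 63.6% of its windows of the read length with other genes, so its values may not be specific to it.

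H4, the partner of H3, had genes on both sides of 0, from -0.21 to 0.21 on the log2 scale. The most abundant genes per kilobase were *Hist1h4k* (1560.1 CPM per kb) and *Hist1h4h* (1317 CPM per kb). *Hist1h4k* was at 436, 519 and 573 CPM in WT and 492, 414 and 486 CPM in mutants (-0.13, SE 0.11). *Hist1h4h* was at 531, 693 and 627 CPM in WT and 719, 572 and 573 CPM in mutants (0.01, SE 0.13). In both the groups overlapped and the spread within a genotype exceeded the difference. *Hist1h4k* shares 64.3% of its windows of the read length with other genes, so its values may not be specific to it. *Hist1h4j* was at 293, 376 and 224 CPM in WT and 436, 288 and 314 CPM in mutants (0.21, SE 0.26). *Hist1h4c* was at 359, 503 and 499.6 CPM in WT and 545, 370.3 and 563 CPM in mutants (0.12, SE 0.22), a sign that turned to -0.03 without WT 1. The single gene outside the larger clusters, *Hist4h4* at chr6:136801553-136804415, had a log2 fold change of 0.05 (SE 0.13).

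Histone genes varied more between pools of 1 genotype than the run of tested genes did. The median SD of log2 levels within a genotype was 0.156 for the 56 histone genes with a mean of at least 10 CPM and 0.0685 for the 9323 tested genes that reached this level. By class it was 0.184 for H4, 0.159 for H2a, 0.159 for H2b, 0.128 for H3 and 0.0905 for H1. These are spreads of single genes and not of class sums. H1 had the smallest of them and was also the class whose summed groups did not overlap. Whether these observations are linked was not tested.

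Values below 0 were found in each of the larger clusters. Of the 30 genes at chr13:23531050-23934156, 26 had a log2 fold change below 0 (median -0.14), as did 14 of the 18 genes at chr13:21715763-22043676 (median -0.13). On chromosome 3 it was 4 of 6 genes (median -0.14), and on chromosome 11 it was 3 of 3 (median -0.21). Genes with and without an annotated stem-loop had medians of -0.13 (37 genes) and -0.15 (21 genes). Of these 21, only 4 have enough annotated sequence past the stop codon to be assessed. The medians therefore do not compare mRNAs known to have or lack the stem-loop. Among H2a and H2b genes with a promoter at hand, the median was -0.17 for the 12 with the octamer and -0.20 for the 14 without it. Among H4 genes with a promoter at hand, it was 0.05 for the 3 with CCAAT and -0.06 for the 8 without it.

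Near-identical copies limit what can be counted. As a description of this, every window of 100 bases, the read length, was compared with all annotated transcripts. Of the 58 genes, 42 had fewer than 50% of their windows in common with another gene. Their median log2 fold change was -0.16, and -0.20 for the H2b genes among them in place of -0.081. Of the 10 rows that did not pass the count minimum, 9 were copies with 61.6% to 100% of their windows shared. These were *Hist1h2ao*, *Hist1h2ap*, *Hist1h2bq*, *Hist1h2br*, *Hist1h4m*, *Hist2h2aa1*, *Hist2h2aa2*, *Hist2h3c1* and *Hist2h3c2*, with 0 to 3 reads per library. Their low counts do not show that they are silent. The tenth, *Hist1h2aa*, a testis form and the nearest to the minimum from below, shares none of its windows and had 2, 6 and 4 reads in WT and 0, 1 and 7 in mutants.

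Replacement histones, most of whose mRNAs carry a poly(A) tail and are made outside S phase as well, are not named Hist and were examined as a list. Of 14 listed genes, 11 were tested, with a median log2 fold change of -0.01. H2A.J, encoded by *H2afj*, was at 16.3, 17.0 and 15.3 CPM in WT and 22.0, 19.97 and 22.6 CPM in mutants. All mutant libraries lay above WT, with a log2 fold change of 0.41 (SE 0.07, edgeR adjusted *P* = 0.255). DESeq2 called it higher (adjusted *P* = 0.00487). *H1f0*, the linker histone of non-dividing cells, was at 281, 265 and 286 CPM in WT and 258, 256 and 259.6 CPM in mutants (-0.10, SE 0.04, edgeR adjusted *P* = 0.520). The other 9 lay between -0.15 and 0.04. Among them the H2A.Z genes *H2afz* and *H2afv* were at -0.01 and 0.01, the H3.3 genes *H3f3a* and *H3f3b* at 0.04 and -0.01, the macroH2A genes *H2afy* and *H2afy2* at -0.03 and -0.004, *H2afx* at -0.01, the centromeric *Cenpa* at -0.004 and *H1fx* at -0.15 (SE 0.19). The germ line linker genes *H1fnt*, *H1foo* and *Hils1* had 0 to 8 reads per library and were not tested.

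**Figure D5:**
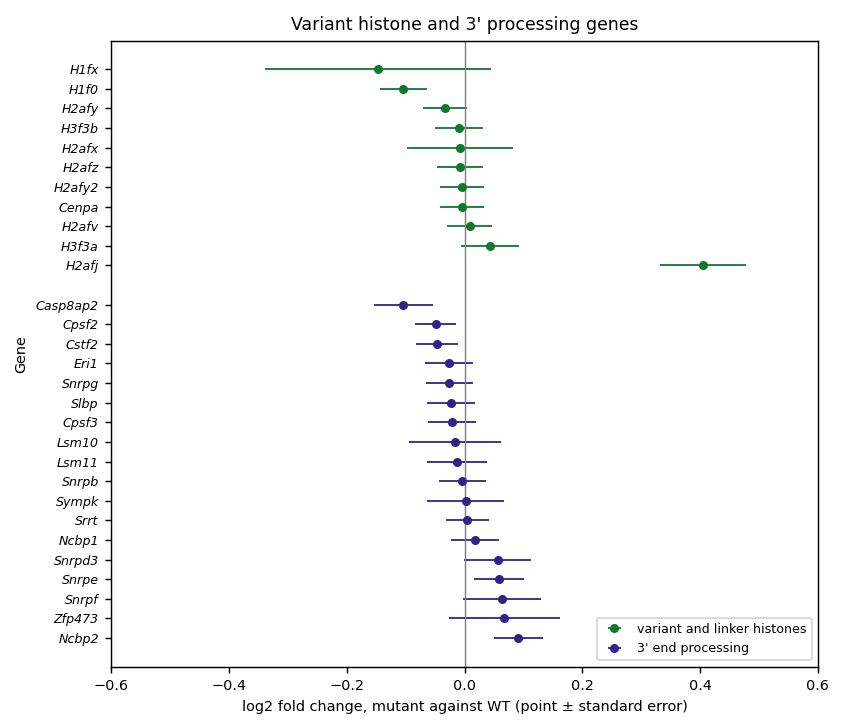
Log2 fold change of mutant against WT (point ± standard error from edgeR) for the 11 tested replacement histone genes and the 18 tested genes of histone 3′ end processing. *H2afj* stands apart at 0.41, and the processing genes lie between -0.10 and 0.09.

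The machinery that cuts histone pre-mRNA was examined next, since it contains SNRPB. Of its 19 listed genes 18 were tested, 0 were at an unadjusted *P* under 0.05 in either direction, and the median log2 fold change was -0.01. *Snrpb* itself, the targeted gene, was at 429.9, 438 and 414 CPM in WT and 436, 412 and 430.3 CPM in mutants. No reduction of the count per gene was detectable in whole heads (-0.004, SE 0.04). By quantitative RT-PCR the study reports significantly lower *Snrpb* in younger whole embryos with widespread deletion, from a different cross. It also reports that the deleted allele makes a shorter transcript. Reads from its remaining exons can still count toward the gene, so this value does not measure intact *Snrpb* mRNA. *Slbp*, which encodes the stem-loop binding protein, was at 168, 182 and 171 CPM in WT and 171, 170.3 and 171 CPM in mutants (-0.02, SE 0.04). The U7-specific *Lsm10* and *Lsm11* were at -0.02 (SE 0.08) and -0.01 (SE 0.05). The Sm genes shared with the spliceosome, *Snrpd3*, *Snrpe*, *Snrpf* and *Snrpg*, lay between -0.03 and 0.06. The cleavage factors *Cpsf2*, *Cpsf3*, *Sympk* and *Cstf2* lay between -0.05 and 0.002, and *Zfp473*, *Eri1*, *Srrt* and *Ncbp1* between -0.03 and 0.07. *Casp8ap2*, encoding FLASH, was at -0.10 (SE 0.05) and *Ncbp2* at 0.09 (SE 0.04). The row of *Rnu7*, the U7 RNA, held no read in any library.

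Genes of histone transcription, the cell cycle and chromatin assembly were counted in the same way, against 4.09% lower and 4.34% higher at an unadjusted *P* under 0.05 among all tested genes. Of 13 listed regulators of histone transcription, 1 was lower and 0 higher at an unadjusted *P* under 0.05. This was *E2f1*, an activator of S phase genes, at 30.5, 28.8 and 27.0 CPM in WT and 21.5, 21.2 and 22.1 CPM in mutants (-0.42, SE 0.06, edgeR adjusted *P* = 0.182), which DESeq2 called lower (adjusted *P* = 6.65e-05). *Npat*, the coactivator specific to histone genes, was at -0.01 (SE 0.05). Of 42 genes of DNA replication, 6 were lower and 0 higher, with a median of -0.02. They were *Tk1* (-0.21), *Pole* (-0.19), *Pola2* (-0.15), *Rrm1* (-0.15), *Pola1* (-0.14) and *Prim2* (-0.12). Of 18 genes of G2 and M phase, 3 were lower and 0 higher, with a median of -0.07. They were *Top2a* (-0.22, called by DESeq2 with an adjusted *P* of 0.0171), *Bub1* (-0.13) and *Aurkb* (-0.11). The summed level of the replication genes was 8538 to 8779.5 CPM in WT and 8346 to 8485 CPM in mutants, a difference of the means of -3.02%, and that of the G2 and M genes was 5144 to 5632 against 4905 to 5074 CPM (-7.67%). Neither overlapped between genotypes, and their part in the lower histone levels was not tested. Of 23 histone chaperones tested, 2 were lower and 0 higher (*Ubn1* at -0.17 and *Atrx* at -0.13, median -0.02), and of 11 genes of histone mRNA translation and decay none was in either direction (median -0.02). None of these genes had an edgeR adjusted *P* under 0.05.

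Other RNAs without a poly(A) tail lay mostly above 0. Of 13 tested small noncoding RNA genes, 11 had a log2 fold change above 0, 3 were higher and 0 lower at an unadjusted *P* under 0.05, and the median log2 fold change was 0.37. Of all 15584 tested genes 7829 were above 0, and 4.34% were higher at that threshold. The 3 were *Scarna13* (0.21), *Snord17* (0.39) and *Snora23* (0.49). The summed level of the small noncoding RNA list was 2725, 5502 and 5052 CPM in WT and 7102, 7334 and 4658 CPM in mutants, lowest in WT 1. Markers of head tissue were present at 476 to 528 CPM in WT and 456 to 496 CPM in mutants, with 15 of 16 listed genes in the table and all 15 tested. Markers of visceral endoderm summed to 39.1 CPM in WT 1 and 10.7 to 12.8 CPM in the other 5 libraries, and erythroid markers to 1529 CPM in WT 1 and 902 to 1243 CPM in the others, with 1 of the 9 erythroid genes at 0. Cardiac markers summed to 13.7 to 90.3 CPM in WT and 39.9 to 149 CPM in mutants, and those of the posterior trunk to 2.47 to 4.16 against 3.69 to 5.11 CPM. None of these marker genes was at an unadjusted *P* under 0.05. WT 1, the library with the lowest H4 sum and the highest H1 sum, was also the highest in visceral endoderm and erythroid markers and the lowest in cardiac markers and small noncoding RNAs, and their part in the class differences was not tested.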

How the data were processed

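RNA from 6 pools of E9.0 heads, 2 heads per pool, was sequenced by the authors as stranded, ribosomal RNA-depleted paired-end libraries. After trimming, STAR placed the reads on mm10, and HTSeq counted them with the Gencode M2 annotation according to the study's methods, while the submitters' processing notes name featureCounts. The deposited values are raw counts per gene symbol, whole numbers without normalization, and all 6 columns were used. How reads that map to several genes were treated, and the strand setting, are not given in the sources used here.

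Groups follow the genotype labels. Counts were normalized with TMM in edgeR (version 4.0.16, R version 4.3.3), filtered with filterByExpr by genotype, and tested with the quasi-likelihood test (two-sided, Benjamini-Hochberg adjusted *P* threshold 0.05 over 15584 genes). Standard errors are the log2 fold change divided by the root of the quasi-likelihood statistic. DESeq2 (version 1.42.0), the authors' tool, was an alternative. It was fitted to 21083 genes and gave 12908 an adjusted *P*. Other alternatives were DESeq2 size factors, library size alone, no filter, a minimum of 10 counts per library, a block for the replicate number, the most abundant gene of each class left out of the sums, all matching rows in the sums, and each library left out in turn. Leaving out genes with 50% or more shared windows was added after the data were seen. The scripts were tested on simulated counts. Every 2 libraries differed by more than counting noise (chi-square over its degrees of freedom 10.2 to 28.3).

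The histone genes and the other lists were chosen with earlier results of these data known. Genes named are the 2 with the highest CPM per kb in each class, the 5 highest and 5 lowest log2 fold changes, those called by a tool or at an unadjusted *P* under 0.05 (the 10 lowest where more), those beside the count minimum, testis and replacement forms, all genes of the replacement histone and 3′ processing lists, and genes at an unadjusted *P* under 0.05 in the others. Others were named after their values were seen. The stated rule would keep 10 of the 12 histone genes at an unadjusted *P* under 0.05, and all 12 are named. Positions and exon lengths are from Gencode M21 (mm10), in which all 68 histone symbols were matched. Promoters are from RefSeq (GRCm38.p6). Figures were drawn with matplotlib (version 3.10.9) in Python (version 3.11.15).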

Additional observations from a re-analysis of the deposited data

How the results depend on the processing

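The number of all tested genes with an adjusted *P* under 0.05 was 1, and became 11 with no filter, 84 with DESeq2, and 0 to 6 when a library was left out. Among the histone genes it was 0 in every edgeR fit and 1 with DESeq2. The 12 histone genes lower at an unadjusted *P* under 0.05 ranged from 6 to 25 when a library was left out, and 0 to 1 were higher. With the replicate number as a block the count lower was 23. The share of all tested genes at this unadjusted threshold was not counted in these fits. The labels do not say whether the replicate numbers pair the pools. Equal numbers come from the sample titles alone. The column headers of the deposited counts continue the numbering from WT to mutant pools, so no number is shared there. Deviations from the genotype means correlated at 0.119, 0.00157 and 0.302 for equal numbers, and at -0.225 to 0.0570 for unequal numbers. Within a genotype the deviations of a gene sum to 0, so positive values for some pairs force negative values for others. The contrast of equal and unequal numbers is thus partly built in and cannot show pairing. Pools numbered 1 and 3 correlated best with their equal number, and WT 2 and mutant 2 did not. Whether equal numbers shared a batch was not tested. The median log2 fold change lay between -0.19 and -0.086 over all histone genes, and between -0.17 and -0.045 for H2b, when a library was left out, and the H2b median was -0.20 over genes with under 50% shared windows, a choice made after the data were seen. For single genes the sign turned for *Snrpb* with library size alone (0.0074). When a library was left out it turned for *Snrpb* (-0.026 to 0.019), *Slbp* (-0.050 to 0.012), *Hist1h3e* (-0.11 to 0.10), *Hist1h1t* (-0.40 to 0.016), *Hist1h4c* (-0.029 to 0.29) and *Hist1h4h* (-0.11 to 0.10). *Hist1h2bp*, *H2afj* and *E2f1* were past the threshold with DESeq2, and *E2f1* also with no filter (adjusted *P* = 0.039, edgeR). The lowest count of a histone gene in any library was 54, in *Hist1h1t*, and how far depth limits such genes was not tested.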
